A study of Mus musculus with 12 samples.

Results

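The cathepsin genes described here are *Ctsa*, *Ctsb*, *Ctsc*, *Ctsd*, *Ctsh*, *Ctsk*, *Ctsl*, *Ctss*, *Ctsw* and *Ctsz*, 10 of the 31053 genes of the matrices. They were taken by name, as members of a family of proteases, with earlier results of these data known. Single cell RNA sequencing was performed on cells from tumors of the MMTV-PyMT mouse, in which a mammary promoter drives the polyoma middle T oncogene and breast cancer arises spontaneously. Beads against CD11c were used on late-stage tumors and beads against CD4 and CD8 on tumors of intermediate size, and cryopreserved cells entered droplet sequencing by the 10x Genomics method. Each selection had 3 wild-type (PyMT-PAR2WT) and 3 PAR2 G37I mutant (PyMT-PAR2G37I) samples. PAR2 G37I is a receptor variant that is resistant to signaling by coagulation factor Xa, all animals carried the PyMT transgene without additional treatment, and the labels give neither age nor sex. The 6 samples of each selection were deposited as 1 pooled matrix whose cell barcodes name no sample. Each matrix was therefore treated as 1 sample, the genotypes were not compared, and no p-value was computed.

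Cathepsins are proteases that work mainly in the acid lumen of endosomes and lysosomes. Cathepsin D is an aspartic protease, cathepsin A a serine carboxypeptidase, and the products of *Ctsb*, *Ctsc*, *Ctsh*, *Ctsk*, *Ctsl*, *Ctss*, *Ctsw* and *Ctsz* are cysteine proteases of the papain family. In phagocytes they digest engulfed material, in antigen-presenting cells cathepsin S trims the invariant chain encoded by *Cd74*, and in cytotoxic lymphocytes cathepsin C activates granzymes. Cystatins, among them cystatin C (*Cst3*), inhibit the cysteine cathepsins but not cathepsin D.

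Cells were sorted into gates by their raw UMIs (unique molecular identifiers, each standing for 1 captured transcript molecule) of marker genes other than cathepsins. The macrophage gate required at least 10 UMIs of the C1q genes with *Adgre1* and *Csf1r*, and held 4339 CD11c-selected and 773 CD4/CD8-selected cells. Within it, cells passing 1 sub-gate formed the *Gpnmb Trem2* (163 CD11c-selected cells), *Lyve1 Cd209f* (35), *Il10* (516), *Thbs1 Vegfa* (334) and *Tmem119 Zmynd15* (948) macrophages, 1724 passed none, and 619 passed several and were left out of the sub-gates. The other CD11c-selected gates were *Retnla Ear2 Ccr2* myeloid cells (715), cDC1 (*Xcr1*, *Clec9a*; 367), migratory DCs (*Ccr7*, *Fscn1*; 195), neutrophils (*S100a8*, *S100a9*, *Csf3r*; 96), tumor cells (*Epcam*, *Krt8*, *Krt18*; 276), fibroblasts (*Col1a1*, *Col1a2*, *Dcn*; 72), plasmacytoid DCs (32) and CD8 T cells (28). Markers that the gates did not use were highest in their own gate in 4 of 4 cases for migratory DCs, neutrophils, tumor cells and fibroblasts, in 3 of 4 for macrophages and in 2 of 4 for cDC1. For the gate meant for monocytes (*Ly6c2*, *Ccr2*; 85 cells) only 1 of 5 was highest, and for the gate meant for cDC2 (*Cd209a*, *Flt3*; 158 cells) 0 of 4, so they are called here the *Ly6c2 Ccr2* and the *Cd209a Flt3* gate. In the CD4/CD8-selected matrix, 15509 CD8 T cells, 595 CD4 T cells, 264 tumor cells, 56 fibroblasts and 74 plasmacytoid DCs passed. Selection by beads left other cells in both matrices, and the tumor cells, fibroblasts and CD4/CD8-selected macrophages are such carry-over.

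The level of a gene is given as CPM, its UMIs per 1000000 UMIs summed over the cells of a gate, and its 95% Poisson interval covers counting error only. UMIs count molecules, so levels were not divided by transcript length, although capture may differ between genes. The barcodes of each matrix fall into 6 alphabetical runs, which the files do not tie to samples. Levels within runs of at least 10 cells, a minimum chosen after seeing the data, are given as lowest, median and highest to show their spread. The CD11c-selected matrix held 11639 kept cells with 13314063 to 24245504 UMIs per run, the CD4/CD8-selected matrix 22806 cells with 16222260 to 30182353, and 76 and 51 barcodes recurred between runs.

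To set the genes beside their control regions, RefSeq promoters (GRCm38.p6, from 250 bases before to 50 bases after a start) were searched on both strands. Promoters were in the table for 7 of the 10 genes, with 2 for *Ctsa*. The palindrome CACGTG, the E-box bound by the TFEB family of lysosomal regulators, lay in those of *Ctsa*, *Ctsd* and *Ctsl* (7.15% of the 32851 promoters hold it). Its extended form TCACGTGA, which contains CACGTG, lay in those of *Ctsa* and *Ctsd* (0.974% of all), as did the overlapping GTCACGTG (2.25%). GAGGAAGT, a site type of the myeloid factor PU.1, lay in those of *Ctsc* and *Ctss* as ACTTCCTC on the other strand (3.20%). CACATG was found in *Ctsa* and *Ctss* (14.2%), and the AP-1 site TGACTCA in none of the 8 promoters (5.20%). The promoters shown are those of *Ctsd* (chr7:142387778-142388077, minus strand), *Ctsa* (the one with the motif, chr2:164833523-164833822, plus) and *Ctsl* (chr13:64370471-64370770, minus), because *Ctsd* and *Ctsl* were high in *Gpnmb Trem2* macrophages and *Ctsa* shares their motif, and those of *Ctss* (chr3:95526536-95526835, plus) and *Ctsk* (chr3:95498960-95499259, plus), neighbours with opposite patterns. Capitals mark CACGTG, TCACGTGA or ACTTCCTC, each promoter reads 5′ to 3′ on the strand of its gene, and the *Ctsk* promoter held none of them.
Ctsd promoter: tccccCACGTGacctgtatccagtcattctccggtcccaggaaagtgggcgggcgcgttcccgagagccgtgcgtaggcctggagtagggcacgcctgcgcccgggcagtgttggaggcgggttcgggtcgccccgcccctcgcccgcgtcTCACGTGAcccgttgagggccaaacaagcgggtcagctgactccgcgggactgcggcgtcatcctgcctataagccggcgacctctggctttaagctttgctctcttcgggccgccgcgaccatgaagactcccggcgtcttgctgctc
Ctsa promoter: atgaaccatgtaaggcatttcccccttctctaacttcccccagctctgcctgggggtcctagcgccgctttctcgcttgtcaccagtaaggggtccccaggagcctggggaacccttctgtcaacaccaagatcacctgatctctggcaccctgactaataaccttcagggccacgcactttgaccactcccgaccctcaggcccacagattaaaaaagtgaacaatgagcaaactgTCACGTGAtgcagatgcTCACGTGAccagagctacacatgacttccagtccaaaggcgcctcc
Ctsl promoter: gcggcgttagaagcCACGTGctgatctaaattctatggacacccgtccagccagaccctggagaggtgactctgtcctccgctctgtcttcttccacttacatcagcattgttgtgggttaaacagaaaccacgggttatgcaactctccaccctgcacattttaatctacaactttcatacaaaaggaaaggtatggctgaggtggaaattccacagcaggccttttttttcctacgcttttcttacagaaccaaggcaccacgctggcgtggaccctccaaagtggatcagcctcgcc
Ctss promoter: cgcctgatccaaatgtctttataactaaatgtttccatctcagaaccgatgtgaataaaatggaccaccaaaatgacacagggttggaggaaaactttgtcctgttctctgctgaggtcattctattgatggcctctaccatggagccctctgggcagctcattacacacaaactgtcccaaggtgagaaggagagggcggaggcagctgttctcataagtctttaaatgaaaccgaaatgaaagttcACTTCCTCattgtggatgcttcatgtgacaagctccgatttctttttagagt
Ctsk promoter: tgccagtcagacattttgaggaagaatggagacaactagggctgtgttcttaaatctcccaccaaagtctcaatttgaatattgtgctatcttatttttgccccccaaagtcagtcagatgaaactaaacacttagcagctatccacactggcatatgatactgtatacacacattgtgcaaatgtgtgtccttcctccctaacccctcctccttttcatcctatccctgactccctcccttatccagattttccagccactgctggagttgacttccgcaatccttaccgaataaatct
A match of letters is a description and was not tested as a site.

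Among the gated cells, macrophages were richest in cathepsin transcripts. The 5228 CD11c-selected and 5485 CD4/CD8-selected kept cells that passed no gate are not part of this ranking. The 10 genes made up 1.89% of all UMIs of CD11c-selected macrophages (95% interval 1.89 to 1.89; runs 1.61, 1.84 and 2.15%) and 3.85% of those of *Gpnmb Trem2* macrophages (3.83 to 3.87; runs 3.24, 3.88 and 4.35%). The share was 1.62% in *Tmem119 Zmynd15*, 1.58% in *Lyve1 Cd209f*, 1.26% in *Il10* and 1.20% in *Thbs1 Vegfa* macrophages. It was 0.928% in the *Ly6c2 Ccr2* gate and 0.802% in *Retnla Ear2 Ccr2* cells. Dendritic cells were lower, at 0.392% in the *Cd209a Flt3* gate, 0.307% in migratory DCs and 0.157% in cDC1, and so were neutrophils (0.321%), tumor cells (0.260%) and fibroblasts (0.340%). CD4/CD8-selected CD8 T cells gave 0.128% and CD4 T cells 0.0959%. Run ranges of *Gpnmb Trem2* macrophages lay above those of every other CD11c-selected gate named here, and those of cDC1 lay below those of the *Cd209a Flt3* gate and migratory DCs.

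**Figure D1:**
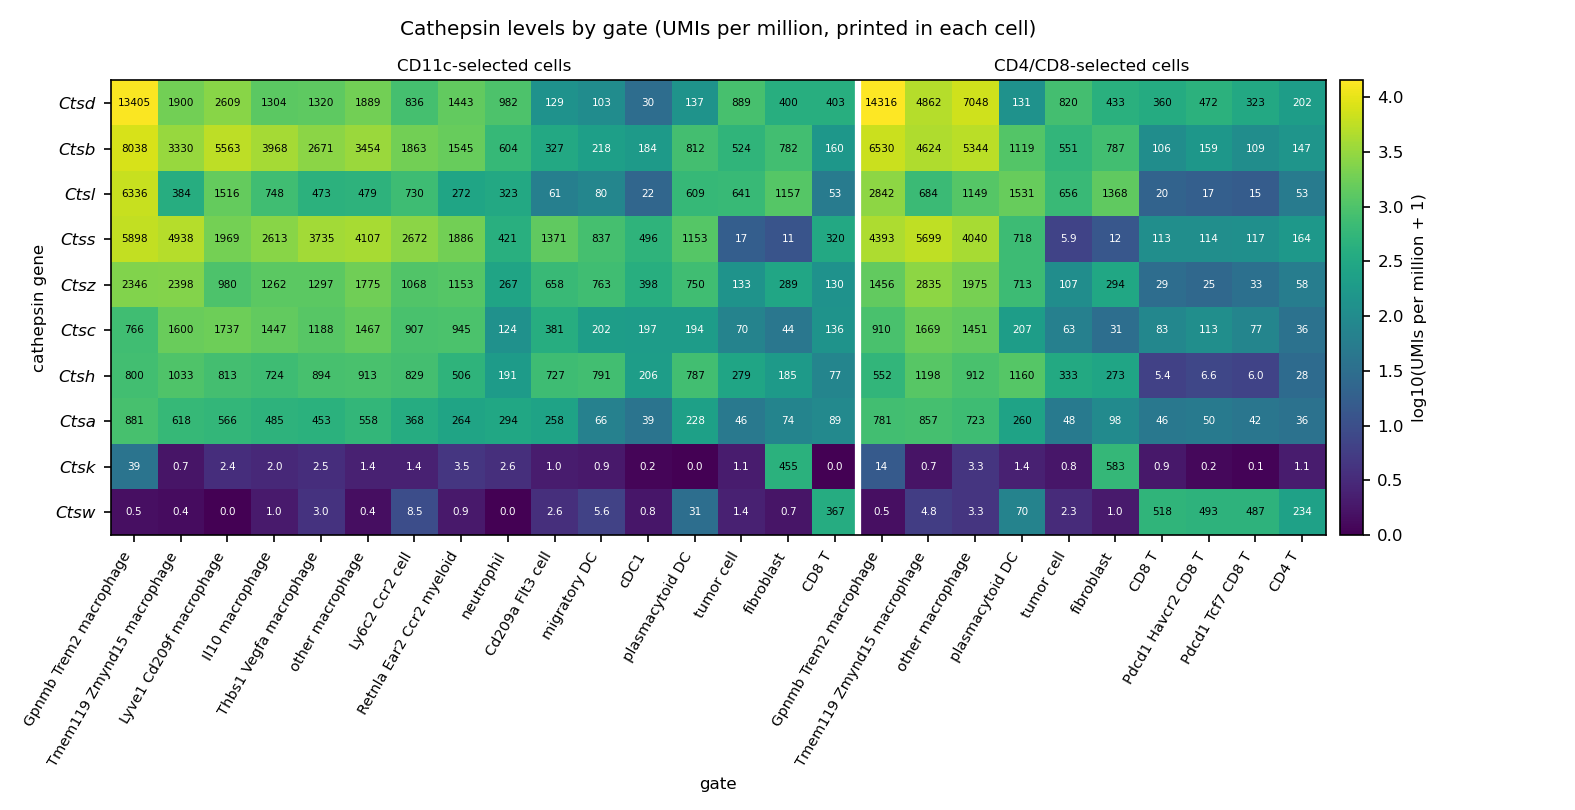
Levels of the 10 cathepsin genes (rows) in each gate (columns), as color on a log10(CPM + 1) scale with the level printed in each field; CD11c-selected gates are left of the white line and CD4/CD8-selected gates right of it. *Ctsd* reaches 13405 CPM in *Gpnmb Trem2* macrophages, *Ctsk* is high in fibroblasts alone (455) and *Ctsw* in T cells (518 in CD8 T cells).

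*Ctsd* (chr7:142375911-142388038; positions here and further on from GENCODE M21 on GRCm38), the aspartic protease of lysosomes, reached the highest level of the family. Its level was 13405 CPM (13292 to 13519; runs 12003, 14199 and 17141) in *Gpnmb Trem2* macrophages, 3925 (runs 2846, 3905 and 5088) over all CD11c-selected macrophages, and 30.0 (25.8 to 34.6; runs 18.0, 31.6 and 76.8) in cDC1. Between these lay *Lyve1 Cd209f* (2609) and *Tmem119 Zmynd15* macrophages (1900.0; runs 1245, 2026 and 2898), *Retnla Ear2 Ccr2* cells (1443), and *Thbs1 Vegfa* (1320.1) and *Il10* (1304) macrophages, of which the last pair did not differ beyond their intervals. Neutrophils (982), tumor cells (889; runs 693, 1100.0 and 1334) and the *Ly6c2 Ccr2* gate (836; runs 301, 417 and 1994) followed, each overlapping in its interval with its neighbour among these 3. Fibroblasts had 400.4, the *Cd209a Flt3* gate 129 and migratory DCs 103. The *Gpnmb Trem2* value was 14317 in CD4/CD8-selected cells. A gene model, *Gm49369*, overlaps *Ctsd* on the same strand, and pseudogenes overlap *Ctsl* (*Gm49230*) and *Ctss* (*Hmgb1-ps5*), so reads in those stretches cannot be assigned with certainty.

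Within single cells *Ctsd* also varied more than *Ctss*. Per 10000 UMIs of a macrophage, *Ctsd* had a median of 10.1 UMIs with a 10th percentile of 1.80 and a 90th of 67.4, whereas *Ctss* had 39.1, 14.8 and 81.1. In *Gpnmb Trem2* macrophages the *Ctsd* median was 120.2 with percentiles of 42.9 and 229.6. A mean over cells, which gives each cell the same weight, put *Ctsd* in macrophages at 2572 instead of 3925 CPM and *Ctsl* at 917 instead of 1404. Cells with more UMIs therefore carried a larger share of *Ctsd* and *Ctsl*, and *Gpnmb Trem2* macrophages had a median of 22360 UMIs per cell against 9983 over all macrophages.

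*Ctsl* and *Ctsb* encode cysteine proteases that degrade proteins in lysosomes. *Ctsl* (chr13:64359337-64370890) stood at 6336 CPM in *Gpnmb Trem2* macrophages, with run levels of 1632, 6225 and 8409. It was 1516 in *Lyve1 Cd209f*, 748 in *Il10*, 473 in *Thbs1 Vegfa* and 384 in *Tmem119 Zmynd15* macrophages. Outside macrophages it was 1157 in fibroblasts (runs 1015, 1027 and 1371), 641 in tumor cells (runs 600.5, 613 and 843) and 22.2 in cDC1. The lowest *Gpnmb Trem2* run lay above every run of *Il10* and *Tmem119 Zmynd15* macrophages but within the spread of all macrophages (756, 1044 and 2521).

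*Ctsb* (chr14:63122462-63145923) was spread more evenly over macrophages. It had 8038 CPM in *Gpnmb Trem2* macrophages (runs 6641, 8147 and 9634), 5563 in *Lyve1 Cd209f*, 3968 in *Il10*, 3330.2 in *Tmem119 Zmynd15* and 2671 in *Thbs1 Vegfa* macrophages. Its level was 782 in fibroblasts, 604 in neutrophils, 524 in tumor cells, 327 in the *Cd209a Flt3* gate, 218 in migratory DCs and 184 in cDC1.

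*Ctss* (chr3:95526786-95556403), *Ctsh* (chr9:90054152-90076089), *Ctsz* (chr2:174427493-174439039) and *Ctsc* (chr7:88278085-88310888) were not concentrated in the *Gpnmb Trem2* state. *Ctss*, the protease of the invariant chain, was 5898 CPM there (runs 5308, 6194 and 7129) and 4938 in *Tmem119 Zmynd15* macrophages (runs 4335, 5439 and 5633), and the run ranges overlapped. *Ctsz*, a carboxypeptidase, was 2346 and 2398 in the same order, and *Ctsh*, an aminopeptidase, 800.0 and 1033. *Ctsc*, the dipeptidyl peptidase, was lowest in *Gpnmb Trem2* among the macrophage sub-gates at 766 (runs 609 to 929), against 1600 in *Tmem119 Zmynd15* (runs 1275 to 1819) and 1737 in *Lyve1 Cd209f* macrophages. *Ctsa*, the carboxypeptidase that protects lysosomal neuraminidase, ranged from 453 in *Thbs1 Vegfa* to 881 in *Gpnmb Trem2* macrophages.

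Against *Lyve1 Cd209f* macrophages, 5 of the 9 cathepsins tested were 2-fold or more higher in *Gpnmb Trem2* macrophages and 1 was lower, beside 9.99% and 16.8% of the 10158 genes with at least 10 UMIs in the pair. The folds, computed with 1 UMI added to each sum, were 5.13 (4.84 to 5.46) for *Ctsd*, 4.17 (3.86 to 4.53) for *Ctsl*, 2.99 for *Ctss* and 2.39 for *Ctsz*. *Ctsk* gave 8.06 from 156 against 1 UMI. Its interval (2.83 to 636), like those of the other folds, was computed from the sums without the added UMI. *Ctsc* was 2.27-fold lower (2.09 to 2.46), and *Ctsb* (1.44), *Ctsa* (1.55) and *Ctsh* (0.981) were under 2-fold. The median log2 difference was 1.26 over the cathepsins and -0.16 over all genes. The 35 *Lyve1 Cd209f* cells had only 1 run of 10 cells, so their spread is unknown.

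The order of the other sub-gates depended on the cells that passed several. When such cells were kept in each sub-gate they passed, an alternative added after the data were seen, *Ctsd* was 5634 instead of 1320.1 CPM in *Thbs1 Vegfa* macrophages, 3619 instead of 1900.0 in *Tmem119 Zmynd15* and 12733 instead of 13405 in *Gpnmb Trem2* macrophages. *Ctsl* was then 2032 instead of 473 in *Thbs1 Vegfa* and 4998 instead of 6336 in *Gpnmb Trem2* macrophages. *Gpnmb Trem2* macrophages kept the highest level of both genes. Against *Lyve1 Cd209f* macrophages, *Ctsl* was then 2.04-fold higher instead of 4.17-fold, and *Ctsc* was no longer 2-fold lower (a fold of 0.522). With stricter gates *Ctsl* was 2.68-fold higher.

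**Figure D2:**
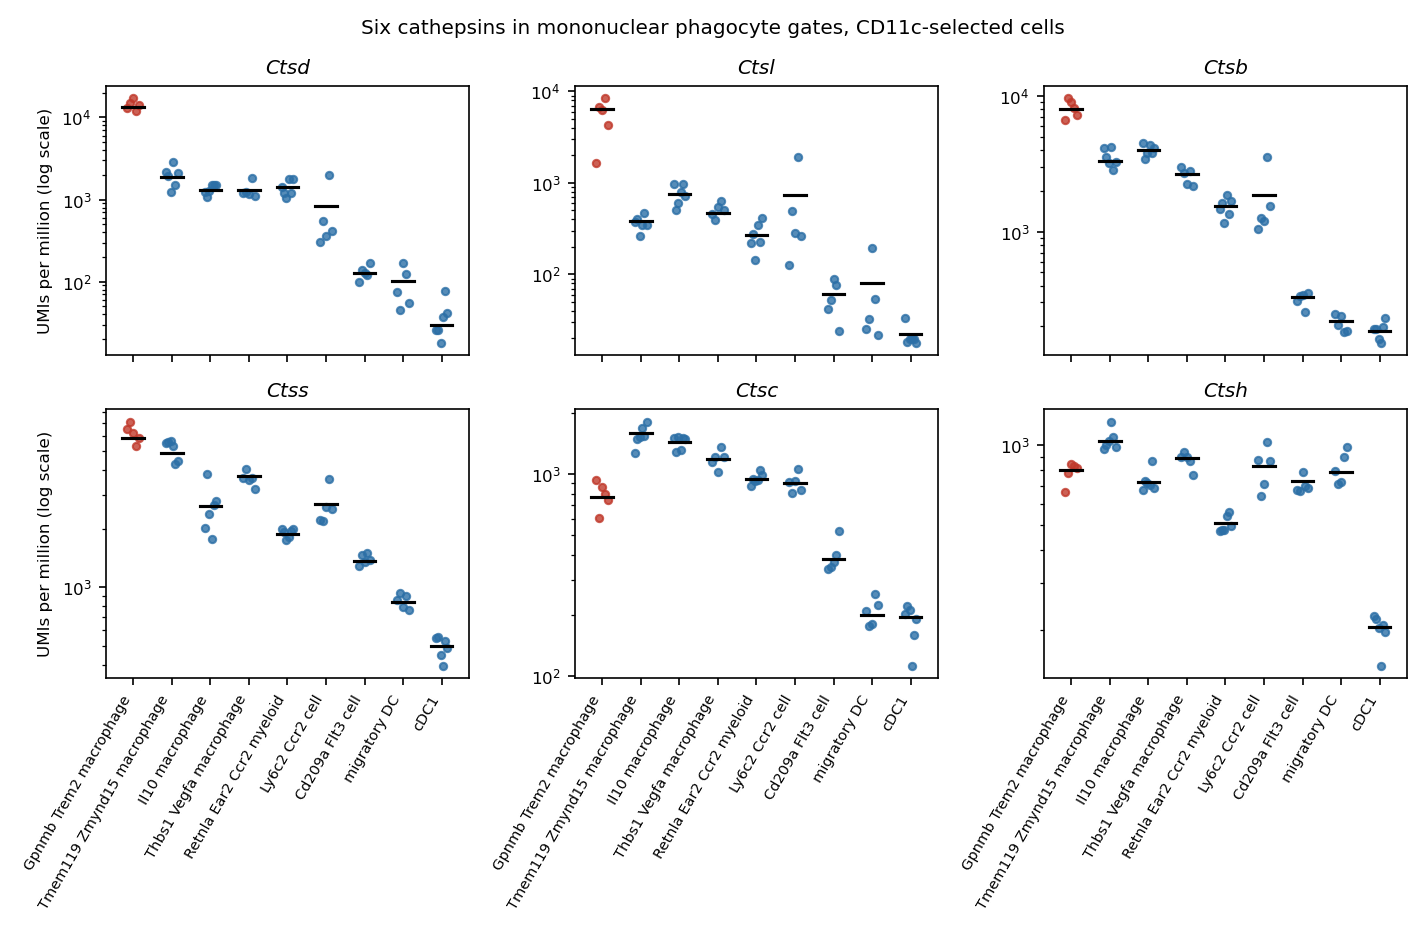
Levels (CPM, log axis) of 6 cathepsin genes in the CD11c-selected mononuclear phagocyte gates; points are barcode runs with at least 10 cells and black lines the level over all cells of the gate. *Ctsd* in *Gpnmb Trem2* macrophages (red, 12003 to 17141) lies above all other gates, *Ctsc* in the same cells (609 to 929) does not, and *Ctsh* in the *Cd209a Flt3* gate and migratory DCs lies near that of macrophages.

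Across 3503 macrophages thinned to 5000 UMIs each, the Spearman correlation over cells was 0.695 between *Ctsb* and *Ctsd*, 0.508 between *Ctsb* and *Ctsl*, 0.480 between *Ctsd* and *Ctsl* and 0.384 between *Ctss* and *Ctsz*. Between *Ctsc* and *Ctss* it was -0.111. The cells share a library and its free RNA, and these values are a description.

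The make-up of the family changed with the cell type. *Ctsd* gave 34.8% of the cathepsin UMIs of *Gpnmb Trem2* macrophages, followed by *Ctsb* (20.9%), *Ctsl* (16.5%) and *Ctss* (15.3%). Over all macrophages *Ctss* (23.6%), *Ctsb* (22.8%) and *Ctsd* (20.8%) were near each other. *Ctss* led in *Tmem119 Zmynd15* macrophages (30.5%), in the *Cd209a Flt3* gate (35.0%) and in cDC1 (31.5%). Tumor cells were led by *Ctsd* (34.2%), fibroblasts by *Ctsl* (34.1%), *Lyve1 Cd209f* macrophages by *Ctsb* (35.3%) and CD8 T cells by *Ctsw* (40.4%).

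**Figure D3:**
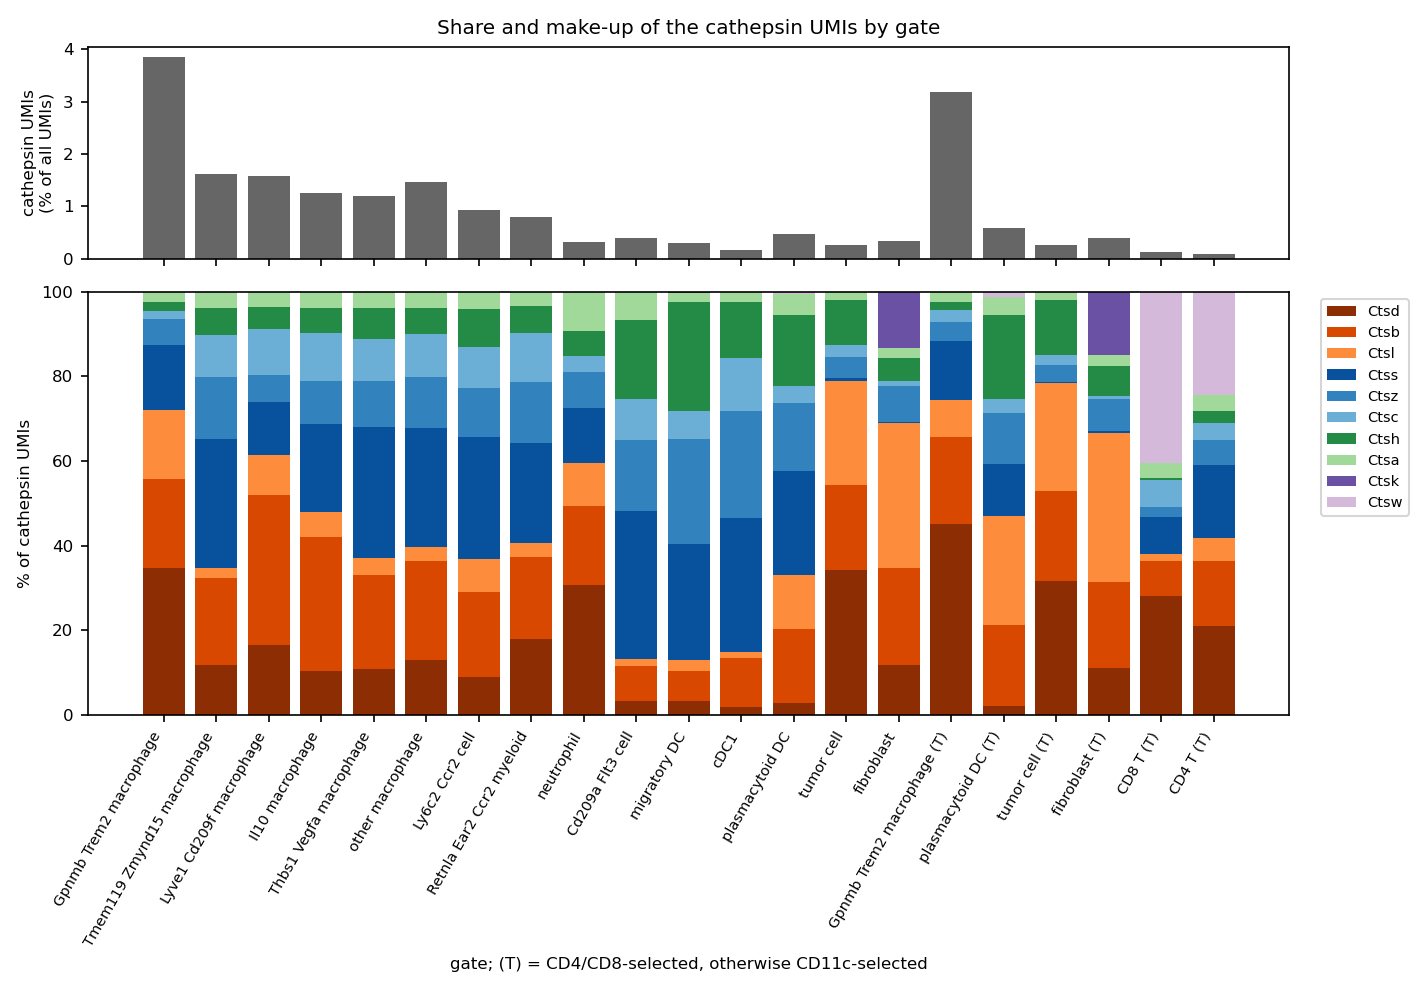
Upper bars, cathepsin UMIs as a percent of all UMIs of each gate; lower stacked bars, the 10 genes as percents of those cathepsin UMIs, with (T) for CD4/CD8-selected gates. The share falls from 3.85% in *Gpnmb Trem2* macrophages to 0.157% in cDC1 and 0.128% in CD8 T cells, and *Ctsw* fills 40.4% of the bar of CD8 T cells.

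All CD11c-selected macrophages were also compared with the *Ly6c2 Ccr2* gate. Of 10 cathepsins, 3 were 2-fold or more higher in macrophages and 1 was lower, against 6.88% and 23.5% of 13636 genes. *Ctsd* was 4.69-fold higher (4.33 to 5.10) and *Ctsb* 2.31-fold (2.19 to 2.44), both with run ranges that did not overlap. *Ctsk*, with 346 against 1 UMI, gave 2.28 (interval without the added UMI 0.812 to 180.3). *Ctsl* was 1.92-fold higher with overlapping runs, *Ctsh* differed little (1.09), and *Ctsw* was 16.1-fold lower from 32 against 6 UMIs. The median log2 difference was 0.80 over the cathepsins and -0.27 over all genes. Run 5 of the matrix carried much of the *Ctsd* and *Ctsl* signal of the *Ly6c2 Ccr2* gate. Without it, *Ctsd* was 431 instead of 836 CPM and *Ctsl* 321 instead of 730, while *Ctss* was 2348 instead of 2672. *Ctsd* was then 8.30-fold and *Ctsl* 3.20-fold higher in macrophages. Without the top 5% of cells by UMIs, *Ctsb* was 1.94-fold higher, under 2-fold.

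*Retnla Ear2 Ccr2* cells, of which 3 of 4 unused markers were highest there, had less of most cathepsins than macrophages. *Ctsl* was 272 CPM (runs 144, 249 and 411), 5.16-fold below macrophages, *Ctsb* 1545 (2.79-fold) and *Ctsd* 1443 (2.72-fold). *Ctsc* was nearest, at 945.5 against 1352, 1.43-fold lower.

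Among dendritic cells, cDC1 had less *Ctsa*, *Ctsd*, *Ctsh* and *Ctss* than the *Cd209a Flt3* gate. For *Ctsd*, neither gate was shown to lie above free macrophage RNA, as described below. Against the *Cd209a Flt3* gate, 0 of 9 cathepsins were 2-fold or more higher in cDC1 and 6 were lower, beside 11.6% and 13.1% of 10543 genes. *Ctsa* was 39.2 against 258 CPM, 6.57-fold lower (5.64 to 7.71), *Ctsd* 30.0 against 129 (4.31-fold), *Ctsh* 206 against 727 (3.53-fold), *Ctss* 496 against 1371 (2.76-fold) and *Ctsl* 22.2 against 61.3 (2.77-fold). The run ranges of *Ctsa*, *Ctsd*, *Ctsh* and *Ctss* did not overlap, and those of *Ctsl* did. The 6th, *Ctsw*, rested on 5 UMIs in each gate. *Ctsb* (1.78-fold), *Ctsc* (1.94-fold) and *Ctsz* (1.65-fold) were also lower in cDC1 but under 2-fold, and their run ranges did not overlap either. Without the C1q bound *Ctsd* was 1.64-fold lower, and without run 3 *Ctsl* was 1.96-fold lower, so both fell short of 2-fold there, while *Ctsc* passed it without run 1, 2 or 3 (folds of 0.498, 0.489 and 0.490). As a median over genes, the log2 difference was -1.47 against 0.04 over all genes.

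Migratory DCs resembled the *Cd209a Flt3* gate in *Ctsh* and *Ctsz* but had less *Ctsa*, *Ctsb*, *Ctsc* and *Ctss*. *Ctsh* was 791 CPM in migratory DCs (runs 714 to 983) and 727 in the *Cd209a Flt3* gate (runs 669 to 791), with a fold of 1.09 (1.01 to 1.17). Both values lay near the 901 of macrophages, whereas *Ctsd* in the same cells was 2.61% and 3.30% of its macrophage level. Without the top 5% of cells by UMIs *Ctsd* was 60.5 instead of 103 CPM in migratory DCs. *Ctsz* was 763 against 658, and *Ctsa* was 66.2 against 258, 3.88-fold lower (3.23 to 4.73). Of 9 cathepsins, 0 were 2-fold or more higher in migratory DCs and 1 was lower, where 14.6% of 9879 genes passed in each direction. Without run 1, 2 or 5, 1 was higher, *Ctsw*, which rested on 12 UMIs in migratory DCs and 5 in the *Cd209a Flt3* gate. As a median over genes, the log2 difference was -0.33 against -0.06.

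The inhibitor *Cst3* ran opposite to the cathepsins among dendritic cells. It was 25612 CPM in cDC1 (runs 20218, 24644 and 28807), 13472 in migratory DCs, 3614 in the *Cd209a Flt3* gate and 3444 in macrophages. For each UMI of a cystatin there were 0.0611 cathepsin UMIs in cDC1, 0.223 in migratory DCs and 1.03 in the *Cd209a Flt3* gate. Macrophages had 4.50 and *Gpnmb Trem2* macrophages 10.0. All 10 genes entered these counts, also *Ctsd* and *Ctsa*, which do not encode cysteine proteases. *Ctsd* gave 34.8% of the cathepsin UMIs of *Gpnmb Trem2* macrophages and 1.90% of those of cDC1, so the values do not measure inhibitor against its targets alone. *Cstb*, which encodes the cytosolic inhibitor cystatin B, was 1311 in *Gpnmb Trem2* macrophages, 753 in all macrophages and 119 in cDC1. *Cd74*, the substrate of cathepsin S in class II presentation, was 19750 in the *Cd209a Flt3* gate and 16418 in cDC1. It was 16558 in *Tmem119 Zmynd15* but 1479 in *Gpnmb Trem2* macrophages. Among CD11c-selected gates *Ctss* was highest in *Gpnmb Trem2* macrophages, at 5898 against 4938 in *Tmem119 Zmynd15* macrophages, with overlapping run ranges. In the CD4/CD8-selected matrix *Ctss* was 4393 in *Gpnmb Trem2* macrophages, below *Tmem119 Zmynd15* (5699) and *Thbs1 Vegfa* (4799) macrophages.

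Plasmacytoid DCs carried *Ctsl*, *Ctsh* and *Ctsb*. In the 74 CD4/CD8-selected cells *Ctsl* was 1531 CPM (runs 1265, 1481 and 1832), *Ctsh* 1160.0 (runs 911, 1115 and 1271) and *Ctsb* 1119 (runs 921, 1196 and 1387), against *Ctsd* at 131. Without the C1q bound *Ctsd* was 326. The 32 CD11c-selected cells gave 609 for *Ctsl*, 787 for *Ctsh*, 812 for *Ctsb* and 137 for *Ctsd*, and *Ctss* was highest there, at 1153. *Ctsh* was thus at 161% of its level in CD4/CD8-selected macrophages, while *Apoe* stood at 0.263% of its own.

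Neutrophils had less of most cysteine cathepsins than the *Ly6c2 Ccr2* gate. *Ctsd* was 982 CPM (885 to 1088) against 836, a fold of 1.18 with overlapping runs. Without run 5 *Ctsd* was 431 in the *Ly6c2 Ccr2* gate, the fold was 2.24, and 1 cathepsin was 2-fold or more higher. Of 8 cathepsins tested, 0 were 2-fold or more higher and 6 were lower, against 20.1% and 11.8% of 7652 genes. *Ctsc*, whose product activates the neutrophil elastase family, was 124 against 907 (7.14-fold lower, 5.41 to 10.0), *Ctss* 421 against 2672 (6.31-fold), *Ctsh* 191 against 829 (4.30-fold) and *Ctsz* 267 against 1068 (3.96-fold, and 6.05-fold without run 2). *Ctsb* was 3.07-fold and *Ctsl* 2.25-fold lower, and without run 5 *Ctsl* was no longer lower (fold 1.04). *Elane* had 0 UMIs in these neutrophils, which allows up to 7.94 CPM (3 UMIs of the gate). For the family the median log2 difference was -1.80 against 0.23. *Krt8* stood at 972 and *Epcam* at 993 in the gate, in 14.6% and 6.25% of its cells. Without cells that held 3 or more UMIs of *Epcam*, *Krt8* and *Krt18* together (93 cells left) *Ctsd* was 1038 and *Ctsc* 149.

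Tumor cells expressed *Ctsd*, *Ctsl*, *Ctsb* and *Ctsh* and no *Ctss* above the level of free macrophage RNA. Of 10 cathepsins, 9 were 2-fold or more lower than in macrophages and 1 was higher, against 17.1% and 30.8% of 14620 genes. The difference was smallest for *Ctsl* (2.19-fold; overlapping runs), *Ctsh* (279 against 901 CPM, 3.22-fold) and *Ctsd* (4.41-fold), and largest for *Ctss* (16.5 against 4466, 268-fold, 224 to 330.2). *Ctsc* (19.2-fold), *Ctsz* (14.4-fold), *Ctsa* (13.4-fold) and *Ctsb* (8.21-fold) lay between. The 1 that was higher, *Ctsw*, had 9 UMIs in tumor cells and 32 in macrophages. Without run 5, 0 were higher and *Ctsl* was 1.61-fold lower, and *Ctsl* was also under 2-fold lower as a mean over cells (1.44-fold), where *Ctss* was 79.7-fold lower. For the family the median log2 difference was -2.71 against 0.35. The 264 tumor cells of the CD4/CD8-selected matrix gave 820.4 for *Ctsd*, 656 for *Ctsl*, 551 for *Ctsb*, 333 for *Ctsh* and 5.86 for *Ctss*.

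Fibroblasts were marked by *Ctsk*, the collagen-degrading cathepsin known from osteoclasts. It was 455 CPM (420.1 to 492; runs 455, 499 and 543) against 6.44 in macrophages, 70.6-fold higher (61.9 to 80.8). The fold was 112 without run 5 and 116 as a mean over cells. *Ctsk* (chr3:95499256-95509362) lies 17423 bases upstream of *Ctss* on the same strand. *Ctss* had the opposite pattern, with 10.9 in fibroblasts and 4466 in macrophages, 383-fold lower. In the CD4/CD8-selected matrix the fibroblast levels were 583 and 12.3. Of 10 cathepsins, 2 were 2-fold or more higher than in macrophages and 7 lower, against 30.3% and 18.3% of 14209 genes, and the 2nd that was higher, *Ctsw*, rested on 1 UMI in fibroblasts and was under 2-fold (1.23) without run 4. *Ctsl* was within 2-fold (1157 against 1404), and *Ctsc* was 30.4-fold lower. On the log2 scale the median difference of the family was -2.59 against 0.15. Among the macrophage sub-gates *Ctsk* was highest in *Gpnmb Trem2* cells, at 39.2 (33.3 to 45.9; runs 11.9, 18.7 and 56.7) in the CD11c-selected and 13.9 in the CD4/CD8-selected matrix, where the other sub-gates had 2 UMIs or fewer each.

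Thinning each cell to 2000 UMIs, with shallower cells left out, gave the share of cells with a UMI at equal depth. *Ctss* was found in 98.5% of macrophages, 59.3% of cDC1 and 5.88% of tumor cells, and *Ctsd* in 77.4%, 8.52% and 75.6%. *Ctsk* was found in 50% of fibroblasts and 0.650% of macrophages. *Ctsw* was found in 61.8% of CD8 T cells and 0.0723% of CD11c-selected macrophages. Without thinning, *Ctss* was in 99.7% of macrophages, 97.8% of cDC1 and 26.8% of tumor cells.

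Macrophage transcripts found in other cells gave a measure of free RNA in the droplets. In cDC1, the macrophage transcripts *Apoe*, *Ms4a7*, *Pf4* and *Mrc1* stood at 0.569 to 0.999% of their macrophage level and *Ctsd* at 0.763%, so *Ctsd* in cDC1 was not above that background, while *Ctss* (11.1%), *Ctsz* (20.8%) and *Ctsh* (22.9%) were. *Lyz2*, at 8.26% in cDC1, lay above the other 4. In migratory DCs *Pf4* was 3.73 CPM against 456 in macrophages and *Mrc1* 27.0 against 415, the lowest and highest proportions of the 5 there. *Ctsd*, at 103 against 3925, lay between them and was not shown to be above free RNA in migratory DCs. In the *Cd209a Flt3* gate *Pf4* was 2.62 CPM, *Lyz2* 421 against 9262 in macrophages and *Mrc1* 135. *Ctsd*, at 129 there, lay in proportion above *Pf4* but below *Lyz2* and *Mrc1*, and was not shown to be above free RNA either. In tumor cells *Ctss* was at 0.370% and in fibroblasts at 0.245%, within the ranges of the 5 transcripts there (0.195 to 1.29% and 0.153 to 2.45%). The 28 CD11c-selected CD8 T cells held *Mrc1* at 52.9% of its macrophage level, from 37 UMIs in 14.3% of the cells. In proportion the other 4 transcripts were lower in this gate. *Ms4a7* was 5.92 CPM against 952 in macrophages, *Pf4* 5.92 against 456, *Apoe* 249 against 22058 and *Lyz2* 587 against 9262. *Ctss* in these T cells fell from 319.9 to 101 CPM without run 1. T cells are therefore described from the CD4/CD8-selected matrix.

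CD8 T cells were defined within the family by *Ctsw*, a cathepsin of cytotoxic lymphocytes (chr19:5465043-5468507). It was 518 CPM in CD8 T cells (513 to 522; runs 486, 516 and 547), 234 in CD4 T cells (runs 92.7, 169.9 and 305, and 152 without run 1), 70.3 in plasmacytoid DCs and 1.92 in macrophages. Against macrophages of the same matrix, 1 of 10 cathepsins was 2-fold or more higher in CD8 T cells and 9 were lower, where 27.6% and 25.4% of 14894 genes passed. *Ctsw* was 261-fold higher (189.9 to 397). *Ctsh* was 134-fold, *Ctsl* 99-fold, *Ctsz* 57.3-fold, *Ctsb* 56.8-fold, *Ctss* 37.9-fold and *Ctsd* 31.4-fold lower, and *Ctsa* (15.9-fold), *Ctsc* (13.6-fold) and *Ctsk* (13.5-fold) were lower by less. Without run 3, which held 425 of the 773 macrophages, *Ctsw* was 107-fold higher, and *Ctsd* was 16.3-fold, *Ctsl* 63.4-fold, *Ctsh* 228-fold and *Ctsk* 5.49-fold lower. Without run 2 *Ctsw* was 436-fold higher, and without run 1 *Ctsk* was 27.7-fold lower. On the log2 scale the median difference of the family was -5.11 against 0.15. *Apoe*, *Lyz2*, *Ms4a7*, *Pf4* and *Mrc1* stood at 0.157 to 0.232% of their macrophage level in these T cells, below *Ctsc* (7.33%), *Ctsa* (6.29%), *Ctsd* (3.18%), *Ctss* (2.64%), *Ctsb* (1.76%), *Ctsz* (1.74%), *Ctsl* (1.01%) and *Ctsh* (0.743%). *Ctsd* was the cathepsin with the second-highest level in CD8 T cells, at 359.5 (356 to 363; runs 296, 356 and 516).

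Within CD8 T cells, *Ctsc* was higher in *Pdcd1 Havcr2* cells (566) than in *Pdcd1 Tcf7* cells (1719), by less than 2-fold but with run ranges apart. This pair was not among the 9 comparisons, so no share over all genes stands beside it. *Pdcd1* and *Havcr2* encode the inhibitory receptors PD-1 and TIM-3, which mark exhausted T cells, and *Tcf7* a transcription factor of their less differentiated precursors. *Ctsc* was 113 CPM (runs 98.0, 109.9 and 145) in the former and 77.3 (61.8, 77.8 and 85.0) in the latter. *Ctsb* was 159 (131, 162 and 196) against 109 (98.7, 107 and 138), and *Ctsd* 472 (356, 504 and 543) against 323 (267, 321 and 413). Both levels were higher in *Pdcd1 Havcr2* cells, but their run ranges overlapped. *Ctsw* was nearly level, at 493 against 487, as was *Ctss*, at 114 against 117, with overlapping runs.

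The granzyme gene *Gzma*, whose proenzyme cathepsin C activates, was 1219 CPM in *Pdcd1 Havcr2* and 140.5 in *Pdcd1 Tcf7* cells, and *Gzmb* 525 against 154. The run ranges of *Gzmb* (289 to 742 and 117 to 214) were apart and those of *Gzma* (8.25 to 2680 and 51.3 to 254) overlapped. Free macrophage transcripts in *Pdcd1 Havcr2* cells stood at up to 0.347% of their macrophage level, while *Ctsb* was at 2.63% and *Ctsc* at 10.0%. The bound of fewer than 10 C1q UMIs mattered here. Without it the gate held 577 instead of 566 cells, and *Ctsb* was 290.1, *Ctsc* 173, *Ctss* 237 and *Ctsz* 104 instead of 24.5 CPM, while *Ctsw* was 475.

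**Figure D4:**
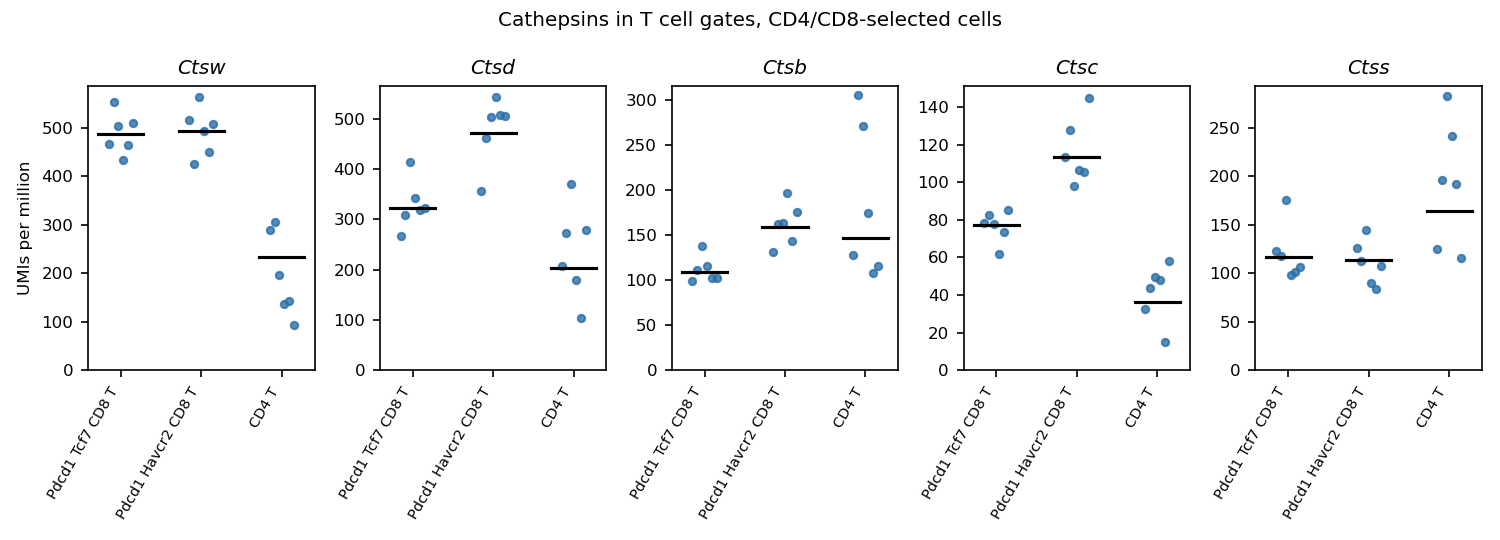
Levels (CPM) of 5 cathepsin genes in *Pdcd1 Tcf7* and *Pdcd1 Havcr2* CD8 T cells and in CD4 T cells of the CD4/CD8-selected matrix; points are barcode runs and black lines the level over all cells of the gate. *Ctsc* lies higher in *Pdcd1 Havcr2* (113) than in *Pdcd1 Tcf7* cells (77.3) with no overlap of points, those of *Ctsb* and *Ctsd* overlap, and *Ctsw* is 493 and 487.

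Macrophages of the CD4/CD8-selected matrix carried more *Ctsd* than those of the CD11c-selected matrix. *Ctsd* was 11304 CPM (runs 1673, 5033 and 13757) against 3925, 2.88-fold higher, and *Ctsl* 2012 against 1404 (1.43-fold). Without run 3 of the CD4/CD8-selected matrix *Ctsd* was 5442 (1.39-fold) and *Ctsl* 1083 (0.771-fold). Of 10 cathepsins, 2 were 2-fold or more higher and 0 lower, against 6.96% and 7.49% of 14104 genes, the other one being *Ctsw* with 31 against 32 UMIs. Without run 3, 1 was higher. The family's median log2 difference was 0.35 against -0.13. The run ranges of all 10 genes overlapped, and how often those of other genes did was not counted. Bead selection and tumor stage differ between the matrices together and cannot be told apart. Within *Gpnmb Trem2* macrophages, of which run 3 held 148 of 165, *Ctsd* was nearly equal (0.936-fold in the CD11c-selected cells), and *Ctsl* was 2.23-fold higher in the CD11c-selected cells (6336 against 2842).

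Other genes of the pathway were taken from fixed lists. Of 13 other cathepsins, 0 reached 100 CPM in any gate, the nearest being *Ctso* in plasmacytoid DCs (68.9) and *Ctsf* in fibroblasts (59.3). All 10 members did, but they were chosen with earlier results of these data known, so this split is not an independent result. Of 14 inhibitors 12 were in the matrices and 4 reached 100, as did 10 of 14 partners and substrates, 6 of 10 sorting genes and 1 of 6 regulators. The prosaposin gene *Psap*, whose product is cut by cathepsin D, was 6885 in *Gpnmb Trem2* macrophages and 4703 in all macrophages, and the asparaginyl protease *Lgmn*, which processes cathepsins, 1792 and 1979. The lysosomal membrane gene *Lamp1* was 1294 and 935. *Glb1* and *Neu1*, the enzymes that cathepsin A protects, stayed at or below 157 in the CD11c-selected gates shown, and the regulator *Tfeb* at 26.9 or less.

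Likeness to other genes was measured as the Pearson correlation of log2(CPM + 1) over 14 CD11c-selected gates among 6091 genes, which share libraries and depth. *Ctsw* was nearest to *Nkg7* (0.980), *Gimap4* and *Trbc1*. *Ctsw* was 367 CPM in the 28 CD11c-selected CD8 T cells and 8.49 in the *Ly6c2 Ccr2* gate, so these values lean on the small CD8 T gate. *Ctsd* was nearest to *Pon3* (0.928), *Pld3* (0.924) and *Tpp1* (0.881), and *Ctsb* to *Tmem86a* (0.963), *Apoe* (0.962) and *Mertk* (0.962). *Ctss* was nearest to *Fcer1g* (0.954), *Ctsh* to *Cyfip1* (0.964), *Ctsl* to *Mocs2* (0.949), *Ctsz* to *Ftl1* (0.955), *Ctsa* to *Fth1* (0.95), *Ctsc* to *Amdhd2* (0.952) and *Ctsk* to *Gstm2* (0.940). Within the family the highest values were 0.899 for *Ctsc* with *Ctss*, 0.877 for *Ctsh* with *Ctsz* and 0.871 for *Ctsd* with *Ctsl*, and the lowest was -0.488 for *Ctsb* with *Ctsw*.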

How the data were processed

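Single-cell suspensions of digested MMTV-PyMT tumors were selected with beads and sequenced by the authors on the 10x Genomics platform. The deposited values are raw counts of UMIs per gene and cell. The submitters' processing notes name Cell Ranger 3.0.2 and mm10, and for the annotation and the cell filter the sources used here give nothing. The 6 samples of a selection are pooled and barcodes name none of them, so the planned genotype test on counts per sample was not run.

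Barcodes under 200 detected genes were left out (341 of 11980 CD11c-selected and 295 of 23101 CD4/CD8-selected). A cell passing several gates (42 and 5) was left out of all, and no doublet caller was run. The C1q and CD3 bounds removed cells by those transcripts only, and whether the removed cells were mixtures was not tested. *C1qa* was found in 70.3% of *Retnla Ear2 Ccr2* cells, whose gate had no C1q bound. Cells with epithelial transcripts stayed in other gates, with *Epcam* found in 6.25% of neutrophils. Levels are UMIs per 1000000 UMIs (CPM) with exact 95% Poisson intervals, and shares of cells were compared after thinning to 2000 UMIs. Folds are ratios of pooled levels with 1 UMI added, and their 95% intervals were computed without it. A change of 2-fold or more was counted among genes with at least 10 UMIs in the pair. With 1 sample per gate no test was made. The scripts were tested on simulated data. Likeness to other genes used genes at 50 or more CPM that no gate used, the 3 highest correlations being named per member. The members, gates and gene lists were chosen with earlier results of these data known. Python 3.11.15, numpy 2.4.6, scipy 1.17.1 and pandas 2.3.3 were used. Alternatives were a mean over cells, stricter gates, no C1q bound, filters on mitochondrial UMIs, on depth and on the deepest cells, and leaving out each barcode run. Overlapping sub-gates, cells with 3 or more *Epcam*, *Krt8* and *Krt18* UMIs left out and shared barcodes left out were added after the data were seen. A further CD8 T cell gate and its comparison are not reported here.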

Additional observations from a re-analysis of the deposited data

How the results depend on the processing

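No paired analysis was possible because the barcodes name no sample, so replicate numbers could not be tied to cells. Intervals cover counting error only, gates with few cells (35 *Lyve1 Cd209f* macrophages, 72 fibroblasts) are the least certain, and genes with under 10 UMIs in a pair give no usable fold. Among 3125 recomputed levels of at least 100 CPM, 51 moved by more than 1.5-fold.

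The cathepsin share of macrophages was 1.66% as a mean over cells, 1.94% with stricter gates, 1.94% without the C1q bound, 1.90% without cells above 10% mitochondrial UMIs, 1.70% without the top 5% of cells by UMIs and 1.91% without cells with 3 or more UMIs of *Epcam*, *Krt8* and *Krt18* together. That of *Gpnmb Trem2* macrophages was 3.82% as a mean over cells, 3.88% without the C1q bound, 3.78% without the top 5%, 3.61% with overlapping sub-gates and 3.89% without those cells. That of cDC1 was 0.162%, 0.154% and 0.190% with a mean over cells, stricter gates and no C1q bound. That of tumor cells was 0.272% as a mean over cells, 0.289% with the mitochondrial filter and 0.254% without the top 5%. That of CD8 T cells was 0.136% as a mean over cells, 0.130% with stricter gates, 0.140% without the C1q bound, 0.127% with the mitochondrial filter and 0.129% without the top 5%.

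The count of cathepsins 2-fold or more higher in fibroblasts than in macrophages went from 2 to 1 with a mean over cells, stricter gates and the top 5% left out, and *Ctsw*, with 1 UMI there, reversed to 0.613-fold as a mean over cells. For migratory DCs, 1 was higher and 2 were lower with stricter gates, and 2 were lower without the top 5%. For macrophages against the *Ly6c2 Ccr2* gate, 2 were lower without the C1q bound, where *Ctsk* reversed to 0.473-fold, and 1 was higher without the top 5%. For tumor cells, 0 were higher without the top 5%, and for *Gpnmb Trem2* against *Lyve1 Cd209f* macrophages, 0 were lower with overlapping sub-gates. The cause of these changes was not tested.

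Leaving out each barcode run in turn gave shares of 1.80 to 1.93% in macrophages, 3.78 to 3.91% in *Gpnmb Trem2* macrophages, 0.154 to 0.161% in cDC1, 0.252 to 0.288% in tumor cells and 0.123 to 0.131% in CD8 T cells. The counts higher ranged from 0 to 1 for migratory DCs, for neutrophils and for tumor cells, 1 to 2 for fibroblasts, 1 to 3 for CD4/CD8-selected against CD11c-selected macrophages and 2 to 4 for macrophages against the *Ly6c2 Ccr2* gate, and the counts lower from 5 to 6 for cDC1 and neutrophils and 8 to 9 for tumor cells. *Ctsl* in neutrophils against the *Ly6c2 Ccr2* gate was 0.445-fold over all runs and ranged from 0.370-fold to 1.04-fold, the latter without run 5 of the CD11c-selected matrix.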
